A study of Mus musculus with 2 samples.

Results

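The genes described here build cholesterol and fatty acids, sense how much sterol a cell holds, and move sterol out of it. They were named by gene symbol: 17 genes of sterol synthesis, 5 that control the SREBP transcription factors, 8 of fatty acid synthesis and 4 of sterol efflux and transport, 34 in all of 30743 genes that the array rows named. Of the 34, 33 had a row. For 30 a row named that gene alone, and 27 of these were above background on both arrays. The rows of Tm7sf2, Srebf1 and Scd2 also named another gene. Lss, Scd1 and Abca1 were below background on both arrays. Nr1h2, the gene for the oxysterol receptor LXRβ, was not analysed here. The comparison was between Vγ6 γδ T cells sorted from the thymi of newborn MHC class II KO mice, aged 0 days, and the same cells of WT mice of that age, both of the C57BL/6 strain, with 1 array for each genotype. The study asked how the transcriptome of these cells differs without MHC class II, which shows peptides to CD4 T cells. The sources used here give neither the class II gene that was disrupted nor whether animals were pooled.

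Cholesterol is made from acetyl-CoA by a chain of enzymes that first gives mevalonate, then farnesyl diphosphate, squalene and lanosterol, and finally cholesterol itself. When sterol in the endoplasmic reticulum runs low, the escort protein SCAP carries SREBP to the Golgi, where it is cut and freed to switch on the genes of sterol and fatty acid synthesis, while the INSIG proteins hold SCAP back when sterol is plentiful. T cells that begin to divide turn this programme on, since new membrane needs both kinds of lipid. LXR receptors switch on the exporters ABCA1 and ABCG1, which move sterol out of the cell. Sterol intermediates of the pathway can also serve as ligands of RORγt, the transcription factor that T cells need to make interleukin 17.

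Since each genotype had 1 array, no difference has an error, a replicate check or a test. All values describe these 2 arrays, and genotype, array, sort and the sex of the animals cannot be told apart. Values are log2 signals, each difference is MHC class II KO minus WT on that scale, and levels of different genes are not compared because each gene is read by its own probes. Background was the signal under which 95% of 1228 olfactory receptor rows lay, a log2 signal of 5.86 in MHC class II KO cells and 5.94 in WT cells. The class II gene H2-Ab1 had a log2 signal of 6.67 in MHC class II KO cells and 7.68 in WT cells, and H2-Eb1 had 5.98 in MHC class II KO cells and 6.95 in WT cells. The place of their probes relative to the disrupted part is not known. All 11 of 11 measured markers of Vγ6 and IL-17-producing cells were above background on both arrays, and the Vγ6 gene Tcrg-V6 had 12.33 in MHC class II KO cells and 12.64 in WT cells. Their levels were not matched: 2 of the 11 were 2-fold lower in MHC class II KO cells and 1 was 2-fold higher. The cytokine gene Il17f had a log2 signal of 8.30 in MHC class II KO cells and 11.18 in WT cells, and Il17a had 9.28 in MHC class II KO cells and 10.85 in WT cells. The chemokine receptor gene Ccr6 had 9.12 in MHC class II KO cells and 7.66 in WT cells. The part of these shifts in the sterol and fatty acid genes was not tested. A bulk signal cannot tell apart fewer cells of a type from less RNA per cell.

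Differences across the members were mostly above 0, and none reached 1.5-fold. None of the 27 members above background was 1.5-fold higher or lower. Of the 14753 genes with a signal over background on 1 array or both, 4.07% were 1.5-fold higher and 3.21% 1.5-fold lower. None was 2-fold apart either, where 0.813% of all genes were 2-fold higher and 1.15% were 2-fold lower. Shares this low leave room for very few genes among 27, so these counts of 0 do not set the members apart from all genes. Above 0 lay 18 of the 27, or 66.7%, against 56.3% of all genes, while 7 lay below 0 and 2 were exactly 0. The median of the members was 0.21, against 0.04 for all genes, a gap of 0.17. In the middle 50% of all genes, the difference ran from -0.13 to 0.21.

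At 1.2-fold, a threshold chosen after the values were seen, 9 of the 27 members were higher in MHC class II KO cells and none was lower. Among all genes 19.5% were 1.2-fold higher and 13.3% were 1.2-fold lower. Among the 8762 genes within the members' own range of mean log2 signal, 6.53 to 10.64, the median was 0.06. Of these genes 59.4% had a difference above 0, 22.2% were 1.2-fold higher and 12.9% lower. The 9 were Hmgcs1, Mvd, Fdps, Fdft1 and Ebp of sterol synthesis, Scap of the SREBP control genes, Fasn and Fads2 of fatty acid synthesis, and Abcg1 of the efflux genes, so each of the groups supplied at least 1. When the differences were corrected by loess on the mean signal, the members' median was 0.12, with that of all genes at -0.00069. After this correction 6 of the 27 were 1.2-fold higher. The share of all genes past 1.2-fold after loess is not given here, so the 6 cannot be set beside it.

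**Figure D1:**
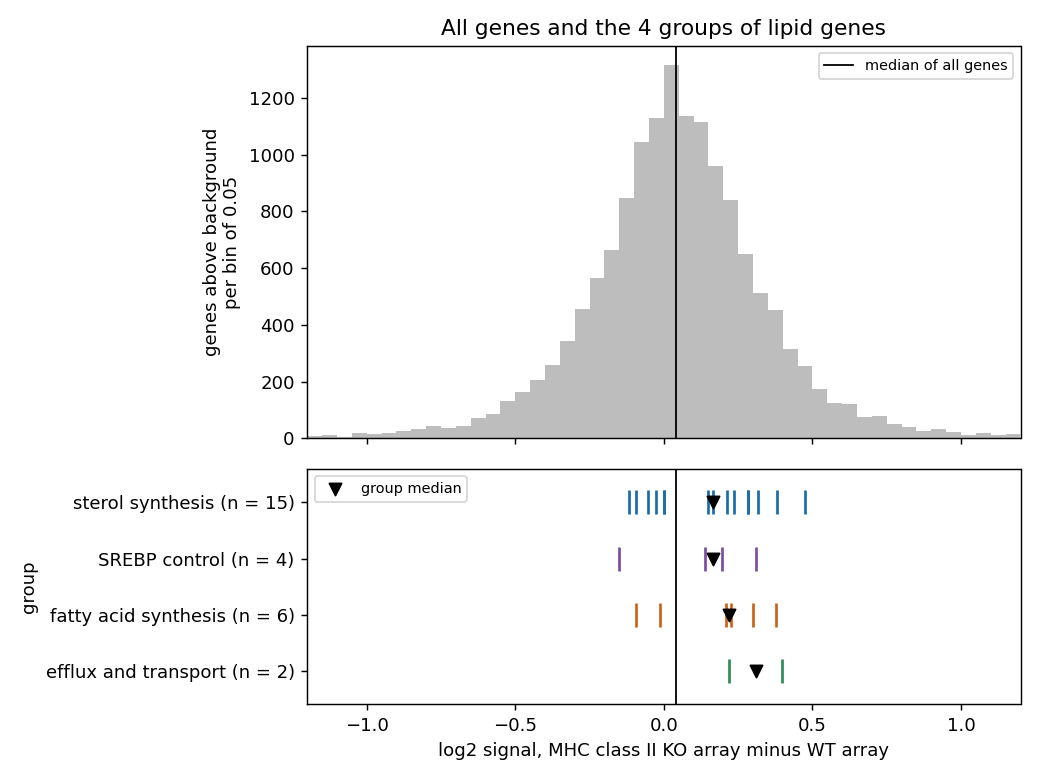
The upper panel counts genes above background by their difference in log2 signal (MHC class II KO array minus WT array, bins of 0.05). The lower panel gives a tick for each member above background and a triangle for each group's median, and the black line is the median of all genes, 0.04. The group medians, 0.16 to 0.31, lie right of that line, and each group but efflux and transport has members on both sides of it.

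Promoter sequences of 4 members are shown because SREBP is known to bind sterol regulatory elements together with the factor NF-Y, which binds the letters CCAAT. Hmgcs1 had the highest difference of the 27 members, and Mvk had the lowest difference among the sterol synthesis genes. Msmo1 and Srebf2 were, of the members whose promoters could be searched, the others with a match to the sterol regulatory letters. The 4 sequences are those of the promoters. They run 5′ to 3′ along the gene's own strand, from 250 bases before to 50 bases after the annotated start, and come from RefSeq, build GRCm38.p6. Capitals mark each match to TCACNCCA, a core of the sterol regulatory element, or to CCAAT, on either strand.
Hmgcs1 promoter (chr13:119690101-119690400, plus strand): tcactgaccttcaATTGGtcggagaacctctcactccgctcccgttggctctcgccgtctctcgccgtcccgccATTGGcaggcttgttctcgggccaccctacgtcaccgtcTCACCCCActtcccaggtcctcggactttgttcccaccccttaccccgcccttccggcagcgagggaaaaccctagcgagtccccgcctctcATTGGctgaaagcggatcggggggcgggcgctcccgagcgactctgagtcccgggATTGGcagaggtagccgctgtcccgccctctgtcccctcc
Msmo1 promoter (chr8:64733529-64733828, minus strand): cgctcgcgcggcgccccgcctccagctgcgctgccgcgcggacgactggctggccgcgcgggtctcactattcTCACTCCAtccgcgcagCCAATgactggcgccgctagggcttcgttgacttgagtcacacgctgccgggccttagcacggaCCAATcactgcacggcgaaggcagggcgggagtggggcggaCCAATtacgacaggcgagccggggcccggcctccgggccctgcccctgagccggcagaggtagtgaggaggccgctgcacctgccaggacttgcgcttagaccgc
Srebf2 promoter (chr15:82147019-82147318, plus strand): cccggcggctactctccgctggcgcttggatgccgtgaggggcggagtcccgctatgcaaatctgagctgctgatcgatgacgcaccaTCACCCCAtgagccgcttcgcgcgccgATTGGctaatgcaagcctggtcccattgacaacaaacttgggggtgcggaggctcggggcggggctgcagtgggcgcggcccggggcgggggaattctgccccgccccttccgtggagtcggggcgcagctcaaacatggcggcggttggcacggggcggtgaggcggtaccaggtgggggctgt
Mvk promoter (chr5:114444019-114444318, plus strand): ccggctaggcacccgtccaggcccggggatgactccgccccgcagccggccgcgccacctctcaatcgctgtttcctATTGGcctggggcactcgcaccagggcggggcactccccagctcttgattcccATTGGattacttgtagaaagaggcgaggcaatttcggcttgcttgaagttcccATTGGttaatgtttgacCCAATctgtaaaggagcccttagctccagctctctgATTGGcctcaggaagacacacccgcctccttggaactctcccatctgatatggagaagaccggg

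Of the 34 members, 26 had at least 1 promoter in the set used, 34 promoters in all. Fdps, Fdft1, Sqle, Fads1, Scd1, Scd2, Abcg1 and Stard4 had none there, so they were not searched. The letters searched first were TCACNCCAC, CCAAT and CACGTG, the E-box that SREBP proteins can also bind, each on both strands. TCACNCCAC was found only in the promoter of Hmgcs1, 2.94% of the 34, against 1.24% of all 32851 promoters of the same length. The shorter TCACNCCA was chosen after these promoters had been read and Srebf2 had been seen to miss the longer form, so its share follows in part from that choice. It was found in 3 of the 34, 8.82%, against 4.36% of all. CACGTG was found in 7 of the 34, 20.6%, against 7.15% of all, and is not marked by capitals. The Scap promoters overlap and share the same CACGTG, which was counted for each. By gene, CACGTG was found in 6 of the 26, 23.1%, against 8.09% of all genes with a promoter. The Hmgcs1 and Srebf2 matches read TCACCCCA and began 137 and 162 bases before the start, and the Msmo1 match read TCACTCCA and began 177 bases before it. CCAAT was found in 21 of the 34 member promoters, 61.8%, against 37.4% of all, and no match to it overlapped a match to TCACNCCA. Counted by gene, CCAAT was found in 20 of the 26, 76.9%, against 41.1% of all genes with a promoter. The Mvk promoter held 5 CCAAT matches and no TCACNCCA, and that of Hmgcs1 held 4 CCAAT matches, so the 2 genes at opposite ends of the sterol group both carried several CCAAT boxes. These are matches of letters, not measured binding sites.

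In sterol synthesis, 15 of 17 genes could be compared, and 9 had differences above 0, 4 below and 2 at exactly 0. For comparison, 56.3% of all genes were above 0, and 59.4% of genes within the members' range of signal. The median of the 15 was 0.16, with a range of -0.12 to 0.48. The early enzymes, up to farnesyl diphosphate, had a median of 0.24 over 6 genes, and the enzymes from squalene on had 0.15 over 9 genes. The lowest and the highest difference of the sterol synthesis genes both fell in the early set.

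Hmgcs1, which encodes the synthase that makes HMG-CoA at the head of the pathway, had a log2 signal of 8.58 in MHC class II KO cells and 8.10 in WT cells. The difference of 0.48 is a fold of 1.39, and 93.4% of all genes had a lower one. Fdps, which encodes farnesyl diphosphate synthase, the branch point to sterols and to protein prenylation, had 10.83 in MHC class II KO cells and 10.45 in WT cells, a difference of 0.38. Mvd, which encodes the enzyme that decarboxylates mevalonate diphosphate, had 7.51 in MHC class II KO cells and 7.20 in WT cells, a difference of 0.32. These 3 early genes were all higher in MHC class II KO cells by less than 1.5-fold. Idi1, the isomerase gene between Mvd and Fdps in the pathway, had 7.90 in MHC class II KO cells and 7.74 in WT cells, a difference of 0.16.

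The kinase genes of the same stretch did not share that direction. Mvk, which encodes mevalonate kinase, had 6.47 in MHC class II KO cells and 6.59 in WT cells, a difference of -0.12. Pmvk, which encodes the next kinase, had 8.74 on both arrays, and its deposited values were identical to the last digit.

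Identical values recurred among the members. Pmvk, Nsdhl and Lss each had the same deposited value on both arrays, although only Pmvk and Nsdhl were above background. Among all genes above background 108, or 0.732%, were identical in this way, and among all rows 845 of 65956. How such ties arose was not tested. Without identical rows, an alternative chosen after the values were seen, the median of the remaining 13 sterol synthesis genes was 0.21.

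Past farnesyl diphosphate, the squalene synthase gene Fdft1 had a log2 signal of 6.93 in MHC class II KO cells and 6.65 in WT cells, a difference of 0.28. Sqle, which encodes squalene epoxidase, a rate-limiting step, had 8.61 in MHC class II KO cells and 8.47 in WT cells, a difference of 0.15. Both were higher in MHC class II KO cells, Sqle within the middle 50% of all genes. Lss, the gene for the cyclase that closes squalene epoxide into lanosterol, had 5.48 on both arrays, below background, so it has no fold.

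Of the enzymes that trim lanosterol toward cholesterol, Cyp51, the lanosterol demethylase gene, had 8.16 in MHC class II KO cells and 7.95 in WT cells, a difference of 0.21. Msmo1, which encodes the methylsterol oxidase of the next stretch, had 7.79 in MHC class II KO cells and 7.56 in WT cells, a difference of 0.23. Ebp, which encodes a sterol isomerase, had 8.18 in MHC class II KO cells and 7.90 in WT cells, a difference of 0.28. All 3 were above 0, and Ebp passed 1.2-fold. Nsdhl, which encodes the dehydrogenase working with Msmo1, had 9.12 on both arrays.

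The remaining late enzymes were near or below 0. Hsd17b7, which encodes a ketosteroid reductase, had 6.73 in MHC class II KO cells and 6.82 in WT cells, a difference of -0.09. Sc5d, which encodes a sterol desaturase, had 10.54 in MHC class II KO cells and 10.59 in WT cells, a difference of -0.05. Dhcr7, which encodes the reductase of a final step, had 7.80 in MHC class II KO cells and 7.83 in WT cells, a difference of -0.03. All 3 lay within the middle 50% of all genes. The row that names Tm7sf2, a sterol reductase gene, together with Vps51 had 7.39 in MHC class II KO cells and 7.38 in WT cells.

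Ebp and Nsdhl lie on chromosome X. On the same arrays the X-inactivation RNA Xist had 14.79 in MHC class II KO cells and 15.35 in WT cells. The 3 measured Y-linked genes were higher in MHC class II KO cells by 0.58 to 0.75. Xist and these Y-linked genes were all above background on both arrays. The part of sex in the difference of Ebp was not tested.

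**Figure D2:**
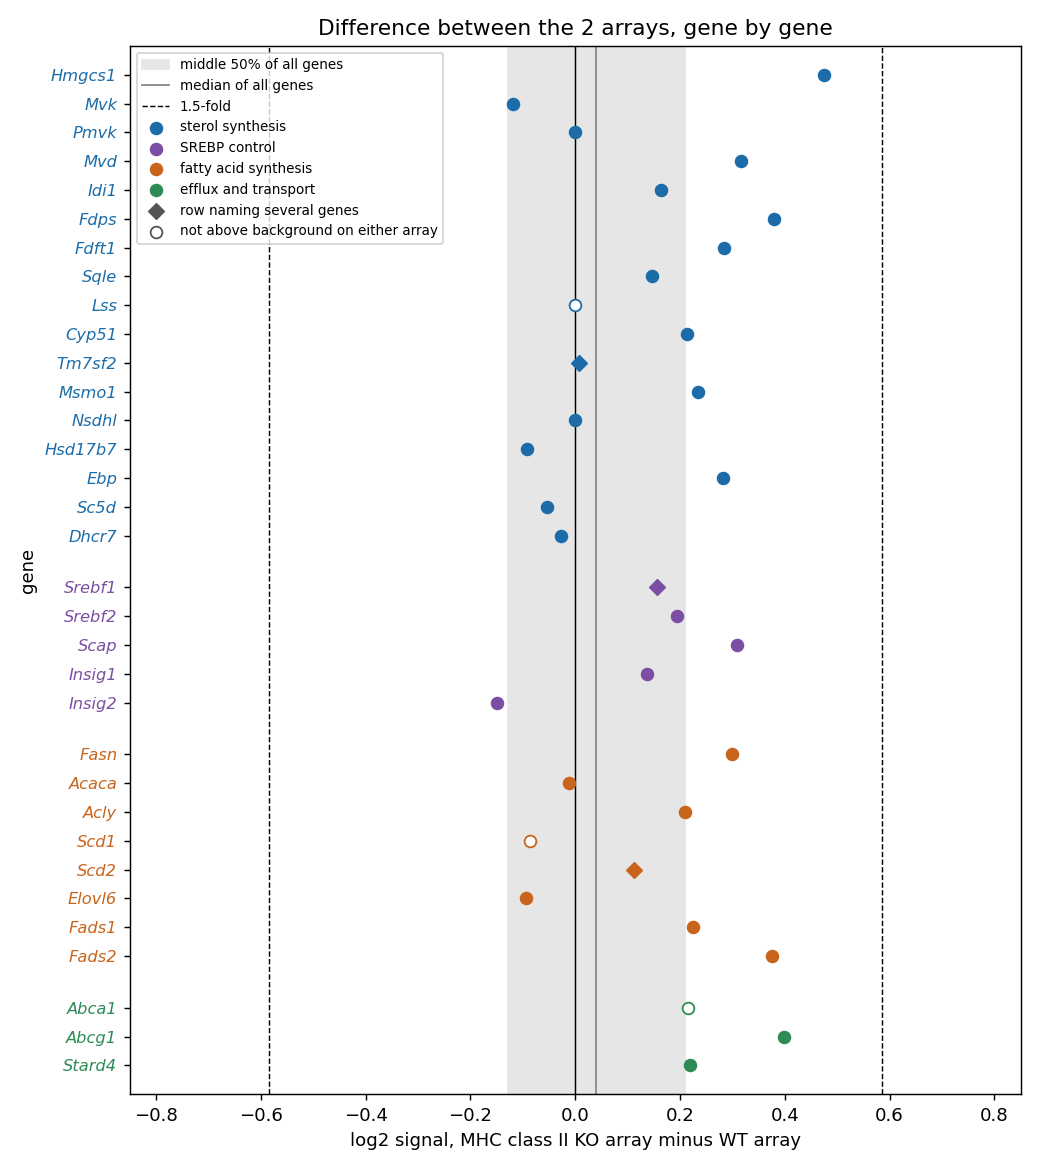
Each point is a gene's difference in log2 signal, MHC class II KO minus WT, by group, with the middle 50% of all genes shaded and 1.5-fold dashed. Filled circles are genes above background, open circles genes below it on both arrays and diamonds rows that name several genes. No point passes 1.5-fold, and Hmgcs1 (0.48) and Insig2 (-0.15) mark the ends of the members above background.

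The SREBP control genes had a median of 0.17 over 4 of 5 genes, with 3 above 0 and 1 below, where 56.3% of all genes were above 0. Scap, which encodes the escort protein, had a log2 signal of 9.68 in MHC class II KO cells and 9.37 in WT cells, a difference of 0.31. Srebf2, which encodes the SREBP of the cholesterol pathway, had 10.02 in MHC class II KO cells and 9.82 in WT cells, a difference of 0.19. Scap alone of the group passed 1.2-fold. The row naming Srebf1, which encodes the SREBP more tied to fatty acids, also names the microRNA gene Mir6922, and it had 7.75 in MHC class II KO cells and 7.59 in WT cells, a difference of 0.16.

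The INSIG genes, whose products hold SCAP in the endoplasmic reticulum, lay on opposite sides of 0. Insig1, itself a target of SREBP, had 8.36 in MHC class II KO cells and 8.23 in WT cells, a difference of 0.14. Insig2 had 8.35 in MHC class II KO cells and 8.50 in WT cells, a difference of -0.15, the lowest of all 27 members.

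In fatty acid synthesis, 6 of 8 genes could be compared, with a median of 0.22. Of the 6, 4 were above 0 and 2 below, beside 56.3% of all genes above 0. Acly, which encodes the enzyme that makes cytosolic acetyl-CoA from citrate, had a log2 signal of 9.32 in MHC class II KO cells and 9.11 in WT cells, a difference of 0.21. Acaca, which encodes acetyl-CoA carboxylase, the committed step, had 8.50 in MHC class II KO cells and 8.52 in WT cells, a difference of -0.01. Fasn, the fatty acid synthase gene, had 10.69 in MHC class II KO cells and 10.39 in WT cells, a difference of 0.30. The genes of the steps before and after the committed one were thus higher in MHC class II KO cells, by 0.21 and 0.30, with Acaca near 0.

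Among the genes that lengthen or desaturate fatty acids, Elovl6, an elongase gene, had 8.46 in MHC class II KO cells and 8.55 in WT cells, a difference of -0.09. Fads1, which encodes a desaturase of polyunsaturated fatty acids, had 8.78 in MHC class II KO cells and 8.56 in WT cells, a difference of 0.23. Fads2, which encodes the other desaturase of that path, had 6.75 in MHC class II KO cells and 6.38 in WT cells in its brighter row, a difference of 0.38. In its dimmer row Fads2 had 6.38 in MHC class II KO cells and was below background in WT cells, which makes it at least 1.36-fold higher in that row. Both rows of Fads2 lay in the same direction.

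The stearoyl-CoA desaturase genes, which make monounsaturated fatty acids, were read unequally. Scd1 was below background on both arrays in each of its 2 rows, with 5.09 in MHC class II KO cells and 5.18 in WT cells in the brighter. The row naming Scd2 together with Mir5114 had 12.27 in MHC class II KO cells and 12.16 in WT cells, a difference of 0.11. It was above background on both arrays.

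Of the efflux and transport genes, 2 of 4 could be compared, with a median of 0.31. Both differences were above 0, as were those of 56.3% of all genes. Abcg1, which encodes an exporter of cholesterol to lipoproteins and is a target of LXR, had a log2 signal of 7.74 in MHC class II KO cells and 7.35 in WT cells. Its difference of 0.40 was the second highest of the 27 members, and 90.2% of all genes had a lower one. Stard4, which encodes a carrier of cholesterol through the cytosol and is a target of SREBP, had 9.04 in MHC class II KO cells and 8.82 in WT cells, a difference of 0.22. Abca1, the gene for the other LXR-controlled exporter, had a signal of 58.15 in MHC class II KO cells, just under the background of 58.22, and 50.1 in WT cells, so it has no fold.

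**Figure D3:**
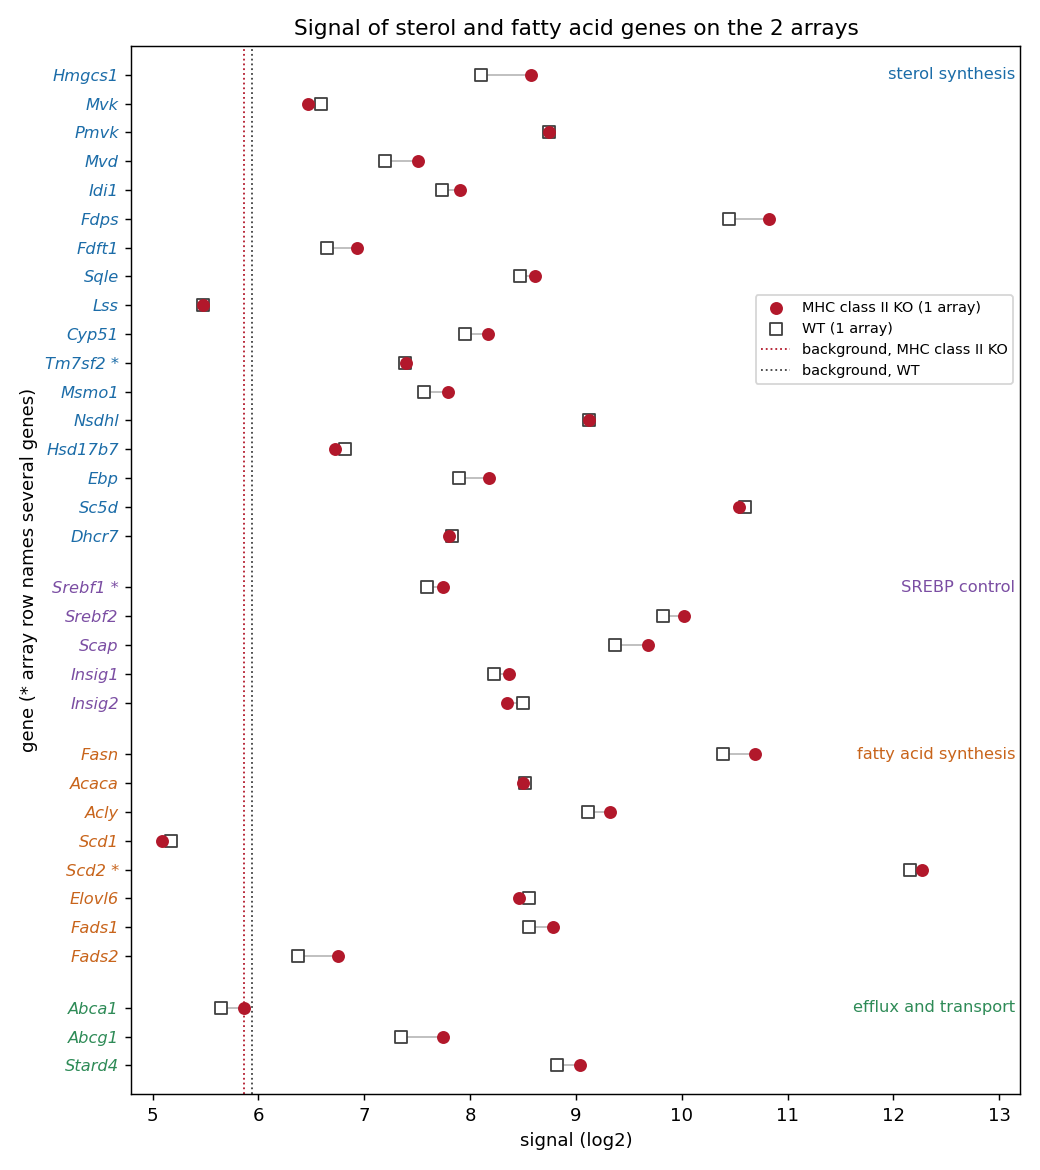
The log2 signal of each gene is shown in MHC class II KO cells (filled circles) and in WT cells (open squares), with the background of each array as a dotted line. The 2 points of each gene lie close together, at most 0.48 apart for Hmgcs1. Lss, Scd1 and Abca1 lie at or left of the lines, and a star marks a row that names several genes.

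The ranges of the 4 groups overlapped. The median of sterol synthesis minus that of fatty acid synthesis was -0.05, and minus that of efflux and transport -0.14, while the SREBP control genes had 0.17 beside the 0.16 of sterol synthesis. The efflux group rests on 2 genes.

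Of 46 other genes of these pathways, 30 were above background, and their median was 0.14. Above 0 lay 23, or 76.7%, against 56.3% of all genes, and 7 lay below. None was 1.5-fold apart, against 4.07% of all genes higher and 3.21% lower. At 1.2-fold, 8 were higher, or 26.7%, against 19.5% of all genes, and 22.2% of those in the members' range of signal. The 1 gene that was 1.2-fold lower made 3.33%, against 13.3% of all genes. Except where stated, the other pathway genes named from here on were picked by that threshold after their values were seen. The marker genes named further on were not picked by it, though their values had also been seen. All 5 measured of 8 other sterol and isoprenoid genes had differences above 0, with Lbr, whose product is both a nuclear envelope protein and a sterol reductase, at 0.53. Dhdds, a gene of dolichol synthesis, which branches from farnesyl diphosphate, was at 0.48. Among 13 other fatty acid genes Oxsm, which encodes the condensing enzyme of mitochondrial fatty acid synthesis, was at 0.53 and Acsl5, an acyl-CoA synthetase gene, at 0.41. Mlycd, whose product breaks down malonyl-CoA, was the 1 gene 1.2-fold lower, at -0.33.

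Among 5 other genes of control and uptake, 4 were above 0 and 1 below. Mylip, whose product sends lipoprotein receptors to degradation, was at 0.46. Among 7 other genes of efflux and storage, 5 were above 0 and 2 below. Npc1, which encodes the protein that releases cholesterol from lysosomes, was at 0.29. Lpcat3, named although it did not reach 1.2-fold, had the lowest difference of the 7, at -0.25. The median of those 7 was 0.04, the same as that of all genes. Hacd3 and Mid1ip1, the 2 further genes 1.2-fold higher, were at 0.29 and 0.27.

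Other lists differed more on the same arrays. All 19 genes of G2/M and mitosis were above background and at least 1.2-fold higher in MHC class II KO cells, with a median of 0.72 and a summed signal of 146129 in MHC class II KO cells and 95841 in WT cells. Of 14 measured genes that mark double positive and αβ thymocytes, 13 were above background, with a median of 0.74, and 10 were 1.2-fold higher, with Dntt and Ptcra below background in WT cells, so that they are bounds only. The summed signal of the 14 was 36712 in MHC class II KO cells and 17069 in WT cells, and Rag2 was not above background. Summed signals rest mostly on a list's brightest genes and do not describe the list as a whole. Here the brightest was Cd8b1, with a log2 signal of 14.75 in MHC class II KO cells and 13.38 in WT cells. In the mitosis list it was Mki67, with 16.32 in MHC class II KO cells and 15.83 in WT cells. Of 13 myeloid markers 3 were above background, and the summed signal of the list was 957 in MHC class II KO cells and 705 in WT cells. Its brightest gene, Cd68, had 8.92 in MHC class II KO cells and 8.02 in WT cells. Of 7 measured B cell markers 2 were above background, and Cd79a, Ms4a1, Pax5, Ebf1 and Blnk were not. Of the 2, Ighm, the immunoglobulin heavy chain gene, had a log2 signal of 15.33 in MHC class II KO cells and 13.93 in WT cells, a fold of 2.65, and Cd79b had 10.19 in MHC class II KO cells and 10.08 in WT cells. The summed signal of all 7, of which Ighm was the brightest, was 42528 in MHC class II KO cells and 16781 in WT cells. Of 9 markers of thymic epithelium 4 were above background on at least 1 array and 2 on both, Foxn1 and Psmb11 not among them. The median of the 4 was -0.26, and the summed signal of all 9 was 476 in MHC class II KO cells and 561 in WT cells. Krt8 and Epcam were below background in MHC class II KO cells, at 5.10 and 5.67, and above it in WT cells, at 6.11 and 6.09. Of 4 measured red cell markers 1, Hbb-y, was above background, with 5.87 in MHC class II KO cells and 6.09 in WT cells. The part of dividing cells or of any of these other cell types in the differences of the sterol and fatty acid genes was not tested.

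**Figure D4:**
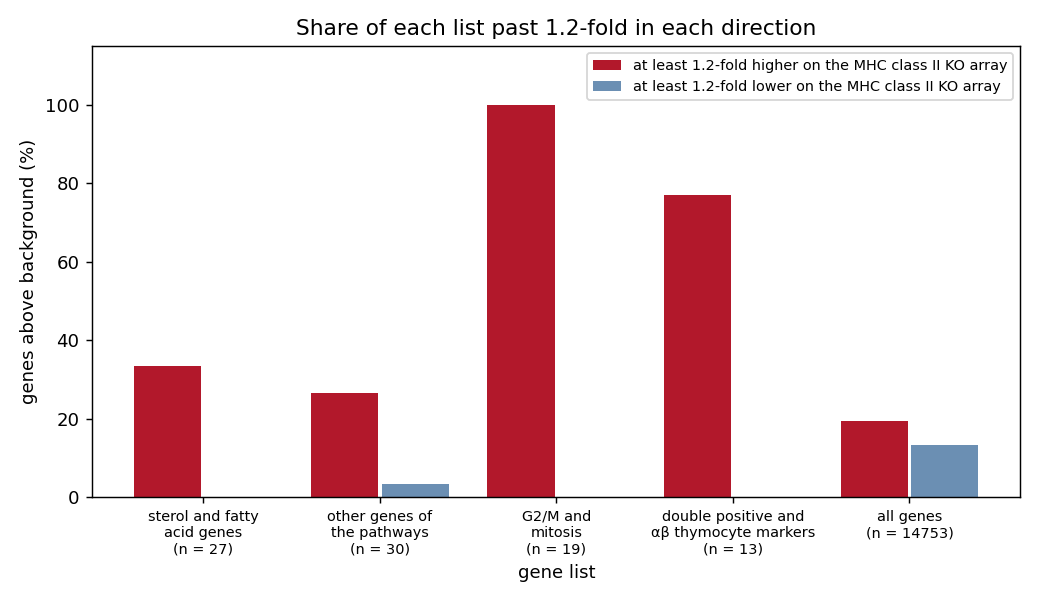
Bars give the share of genes above background, in percent, past 1.2-fold, higher (left bar) or lower (right bar), in MHC class II KO cells, for each gene list and for all genes. The sterol and fatty acid genes stand at 33.3% higher and 0% lower, against 19.5% and 13.3% for all genes, and the mitosis list at 100%.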

How the data were processed

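RNA from sorted Vγ6 γδ T cells was read on 2 arrays, 1 per genotype. The authors deposited linear intensities, and the submitters' processing notes list RMA and Affymetrix Expression Console 1.4.1. The build behind the rows is not given in these sources. Some intensities (742 rows in MHC class II KO cells and 767 in WT cells) exceeded 65535, more than a 16-bit scanner reads, so folds may be stretched or compressed. The log2 of each intensity was taken, with no pseudocount. The platform's annotation named 1 gene for 31216 of 65956 rows, 612 of them through RefSeq synonyms (GRCm38.p6), several for 1534 and none for 33206. Rows with several genes were described as rows and entered no count. Of several rows of a gene the brightest was used. A gene was kept when above background, the 95th percentile of olfactory receptor rows, on at least 1 array (14753 genes). With 1 array per group no test or interval was possible and the number of arrays limits the precision. The members and lists were chosen with earlier results of these data known. All 34 members were named; other pathway genes were to be named at 1.5-fold, which none reached. The steps were tested on simulated data with 2-fold changes in brighter rows. Differences as small as those of the members, and dim genes, were not covered by it. Python 3.11.15, pandas 2.3.3 and statsmodels 0.14.6 were used.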

Additional observations from a re-analysis of the deposited data

How the results depend on the processing

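Alternatives were centring on the median of all genes, quantile normalization, a loess correction (fraction 0.3), setting values below background to background, averaging the rows of a gene, including rows that name several genes, backgrounds at percentiles 90 and 99, no background filter, requiring both arrays above background, means in place of medians, a 3-fold threshold, and leaving out identical rows. The count of members past 1.5-fold, 0 in each direction, was 0 under each of them except means in place of medians, which bears on the medians alone. Some alternatives could not raise a count of 0, so they do not check it. They were the 3-fold threshold, percentile 99, both arrays required, values set to background and identical rows left out. At 1.2-fold, added after the data were seen, the count was 9 higher and 0 lower. The 9 became 6 after centring, 6 after loess, 8 after quantile normalization and 7 with the background at percentile 99. The shares of all genes past 1.2-fold under these alternatives are not given here, so these counts describe the members alone. The group medians stayed above 0 throughout and moved by less than 0.1 on the log2 scale. Setting values to background and requiring both arrays could not move them, since all 27 members were above background on both. That of all members ran between 0.12 (loess) and 0.21, that of sterol synthesis between 0.10 (loess) and 0.21 (identical rows left out), that of fatty acid synthesis between 0.13 and 0.22, that of SREBP control between 0.09 and 0.17, and that of efflux and transport between 0.22 and 0.31. With 30 members kept when no background filter was set, 19 were above 0, against 43.4% of all 30743 genes. Of those 30743 genes only 14753 were above background. No member changed sign, except that Pmvk and Nsdhl, at 0, went below 0 after centring, quantile normalization and loess (-0.04 after centring). No paired analysis was possible because each group has 1 array. Genes near background, such as Abca1 and Lss, are limited by signal.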
